A study of Mus musculus with 16 samples.

Results

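The genes described here are 9 genes of the AP-1 family of transcription factors, *Fos*, *Fosb*, *Fosl1*, *Fosl2*, *Jun*, *Junb*, *Jund*, *Batf*, and *Atf3*, out of 51912 genes in the count table. They were chosen by name, through the match of each Ensembl identifier to its mouse symbol, and all 9 were found and passed the filter on low counts. AP-1 is a dimer of bZIP proteins that binds short DNA elements. FOS proteins pair with JUN proteins, JUN proteins also pair with each other, and BATF and ATF3 take JUN partners and can oppose or redirect FOS-JUN dimers. In lymphocytes, *Fos*, *Fosb*, *Jun*, *Junb*, and *Atf3* are known as immediate-early genes, transcribed within minutes of receptor signaling through MAP kinases, calcium, or cAMP, while BATF works with IRF4 on the genes of effector cells, type 2 cytokine genes among them.

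Lung group 2 innate lymphoid cells (ILC2s) came from WT mice and from *Pac1-/-* mice, which lack the phosphatase encoded by *Dusp2* in all cells, both on the C57BL/6J background and 6 to 8 weeks old. The cells were kept for 4 hours with IL-7 alone (the IL-7 group), or with IL-7 and IL-33 (the IL-33 group), to which CGRP (the CGRP group) or NMU (the NMU group) was added. Every group therefore received IL-7, and the CGRP and NMU groups also received IL-33. IL-33 is an alarmin that activates ILC2s, NMU is a neuropeptide that activates them, and CGRP is a neuropeptide that restrains them through cAMP. In cultured ILC2s, IL-7 and IL-33 were used at 100 ng/mL and CGRP and NMU at 500 ng/mL. The study's culture methods describe expansion of sorted ILC2s with IL-2 and IL-7, both removed before the stimuli were added. Its mRNA-Seq methods do not say whether these cells were expanded first. Bulk mRNA-Seq was made from about 500 sorted cells a library, with 2 libraries in each of the 8 groups, 16 in all. The sources used here do not say whether the 2 libraries of a group came from separate mice, so the *P* values measure the spread between libraries.

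*Dusp2* had 0 counts in 8 of 8 *Pac1-/-* libraries but also in 6 of 8 WT libraries, so its counts check the genotype of few libraries. Between 6764992 and 15963357 reads a library fell on genes (median 11071278), and 3 counts equalled 0.188 to 0.443 counts per 1000000 (CPM). This floor covers counting error only, since no molecular identifiers are described. The 10 ILC2 markers examined (such as *Gata3* and *Il1rl1*) summed to 8720 to 12900 CPM in every library. Summed markers of other cells were lower, at 45.2 to 336 CPM for T cells (led by *Cd3g*, with *Cd8a* at 0 throughout and *Cd4* at most 0.489 CPM), 2.19 to 119 CPM for macrophages and monocytes, and 0 to 0.546 CPM for neutrophils. The replicates of the *Pac1-/-* IL-33 group differed most from each other, with a chi-square of 139 per degree of freedom against 65.8 to 84.4 in the other groups.

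CGRP libraries held far more RNA of 6 AP-1 genes than the libraries of any other treatment. *Fos*, *Fosb*, *Fosl2*, *Jun*, *Junb*, and *Atf3* rose 2.93-fold (*Fosl2*) to 18.0-fold (*Jun*) with CGRP against IL-33, and *Batf* fell to a level 3.34-fold lower. A gene passed if its fold change exceeded 1.5 and its *P* value in the quasi-likelihood test of edgeR, adjusted by Benjamini-Hochberg, was under 0.05. This was so for 7 of the 9 genes and for 2.76% of the 14979 genes tested, with 6 of the 9 higher (1.65% of all genes) and 1 lower (1.11%). The median log2 fold change was 3.10 over the 9 genes and -0.091 over all genes tested. In such bulk samples, more cells with a transcript and more transcript in each cell cannot be told apart. *Fos*, *Fosb*, *Fosl2*, *Jun*, *Junb*, and *Atf3* had all 4 CGRP libraries above all 12 others, a separation seen for 2.38% of the genes tested, and *Batf* had all 4 below all 12 others, as did 1.66%. *Jund* had the upper separation too, but it passed the filter on low counts only through its CGRP libraries. The filter thus favoured this order for *Jund*, and it is not counted here.

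**Figure D1:**
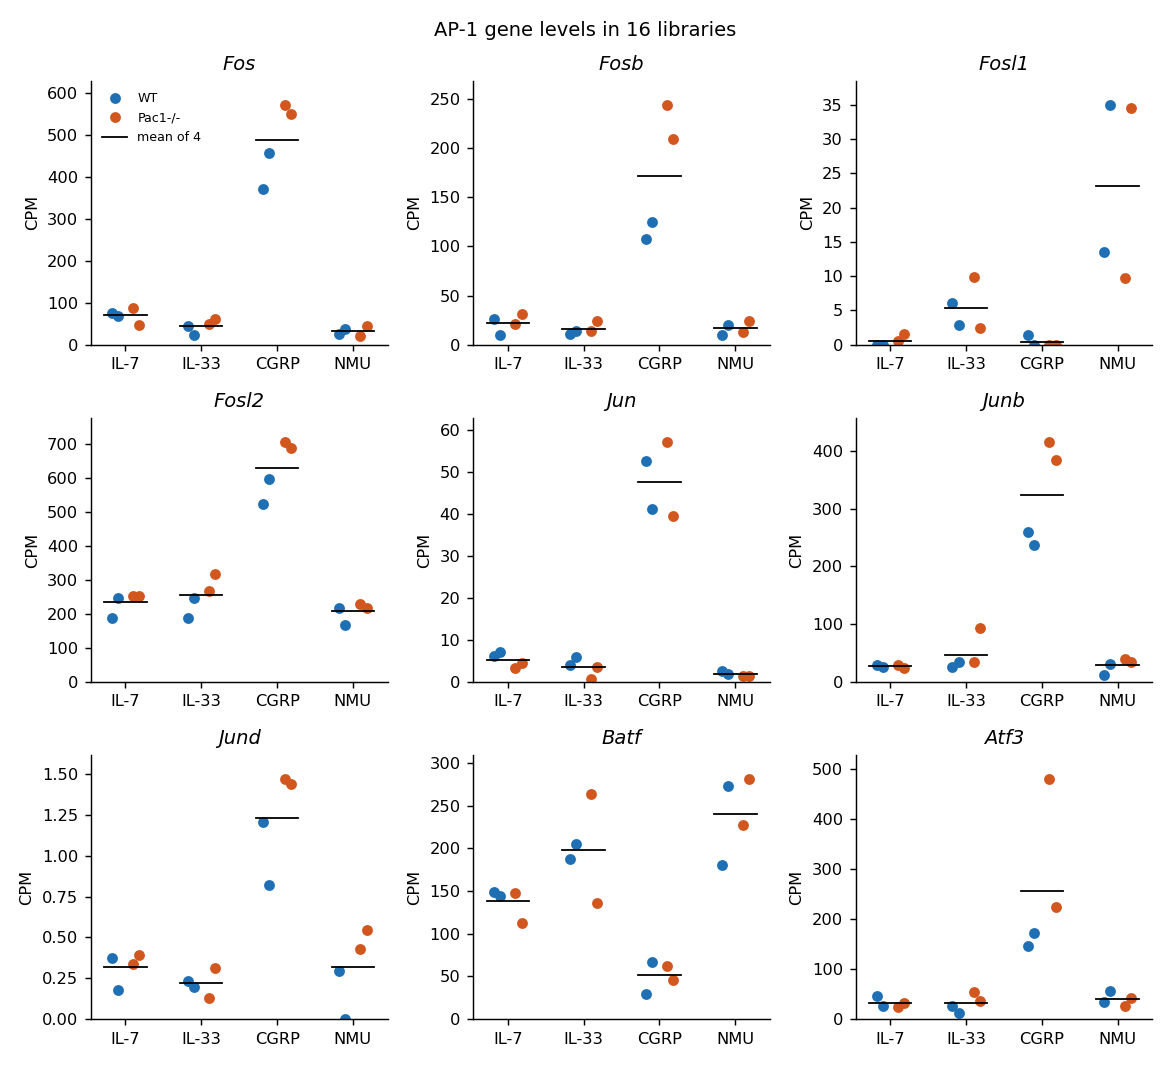
Counts per 1000000 (CPM, linear axis from 0) of each AP-1 gene in the 16 libraries, by treatment, with WT libraries in blue, *Pac1-/-* libraries in orange, and the mean of the 4 libraries as a line. For *Fos*, the CGRP libraries sit between 372 and 571 CPM and all others at 88.4 CPM or below, while *Batf* is at 66.7 CPM or below with CGRP and at 113 CPM or above elsewhere.

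*Fos* (ENSMUSG00000021250; GRCm38 chromosome 12, 85473890 to 85477273, plus strand) encodes the prototype partner of JUN. With CGRP it had 372 and 456 CPM in the WT and 571 and 549 CPM in the *Pac1-/-* libraries. With IL-33 it had 45.4, 24.1, 49.7, and 62.0 CPM in the same order, with IL-7 74.5, 68.2, 88.4, and 47.7 CPM, and with NMU 24.8, 36.5, 20.8, and 43.5 CPM. The CGRP libraries thus stood clear of the rest. The IL-33 libraries overlapped with those of IL-7 and with those of NMU, while all NMU libraries were below all IL-7 libraries. The log2 fold change of CGRP was 3.70 ± 0.295 (SE) against IL-33 (edgeR adjusted *P* = 2.76e-05), 2.83 ± 0.283 against IL-7 (adjusted *P* = 0.000186), and 4.06 ± 0.300 against NMU (adjusted *P* = 1.54e-05). *Fosb* (ENSMUSG00000003545; chromosome 7, 19302696 to 19310051, minus strand), whose protein is a close relative of FOS, had 108 and 125 CPM in WT and 244 and 209 CPM in *Pac1-/-* CGRP libraries. Its other 12 libraries lay between 9.49 and 31.6 CPM, with no overlap. Against IL-33 its log2 fold change was 3.67 ± 0.402 (edgeR adjusted *P* = 0.000281).

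*Fosl2* (ENSMUSG00000029135; chromosome 5, 32135801 to 32157842, plus strand) encodes FRA2, a FOS family member without the strong activation domain of FOS. It was present in every library and had the smallest fold change of the 7 genes called against IL-33. The CGRP libraries had 525 and 597 CPM in WT and 706 and 689 CPM in *Pac1-/-* ILC2s, and the 12 others lay between 167 and 318 CPM. The log2 fold change of CGRP was 1.55 ± 0.188 against IL-33 (edgeR adjusted *P* = 0.000685), with 1.47 and 1.68 against IL-7 and NMU.

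Among the genes of the JUN partners, *Jun* (ENSMUSG00000052684; chromosome 4, 95049034 to 95052222, minus strand) was low in all libraries without CGRP, at 0.646 to 7.07 CPM. With CGRP it had 52.6 and 41.0 CPM in WT and 57.0 and 39.4 CPM in *Pac1-/-* libraries, so that the genotypes overlapped while the treatments did not. The log2 fold change was 4.17 ± 0.619 against IL-33 (edgeR adjusted *P* = 0.00298), 3.28 ± 0.593 against IL-7 (adjusted *P* = 0.0104), and 4.89 ± 0.644 against NMU (adjusted *P* = 0.000785). The call against IL-7 did not hold without either WT IL-7 library or without *Pac1-/-* IL-7 replicate 1, with adjusted *P* values of 0.0569 to 0.058.

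*Junb* (ENSMUSG00000052837; chromosome 8, 84974484 to 84978718, minus strand), whose protein is a weaker activator than JUN, had 259 and 237 CPM in WT and 415 and 384 CPM in *Pac1-/-* CGRP libraries. Without CGRP, 11 libraries lay between 11.2 and 39.5 CPM and the *Pac1-/-* IL-33 replicate 2 library had 93.5 CPM, still well under the lowest CGRP library. Against IL-33 its log2 fold change was 3.10 ± 0.334 (edgeR adjusted *P* = 0.000248), and 3.52 without that library (adjusted *P* = 0.000449). *Junb* shares exon bases with *Prdx2* on the opposite strand, and the use of strand in the counting is not given in the sources used here. The same limit applies to *Jun*, which shares exon bases with *Junos* (75 counts over all libraries). *Prdx2* had a log2 fold change of -0.53 ± 0.22 with CGRP against IL-33 (edgeR adjusted *P* = 0.24).

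*Jund* (ENSMUSG00000071076; chromosome 8, 70698949 to 70700616, plus strand), the JUN family gene known for steady expression in many cells, was barely counted in these libraries. It had 1.21, 0.82, 1.47, and 1.44 CPM with CGRP (15, 8, 15, and 12 counts) and 0 to 0.547 CPM elsewhere (0 to 6 counts). All 4 CGRP values were the highest of the 16, but no other library exceeded 6 counts. The gene passed the filter on low counts only through its CGRP libraries, so this order is no support for a rise. The log2 fold change of 2.68 ± 1.51 against IL-33 did not pass the test (edgeR adjusted *P* = 0.393), nor did those against IL-7 and NMU (adjusted *P* = 0.56 and 0.453), and a difference was not detectable at these counts. *Jund* shares exon bases with *Gm11175* on the opposite strand, which had 0 counts, so the limit on strand given for *Junb* applies here too. Whether reads of *Jund* were lost to this overlap was not tested.

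*Atf3* (ENSMUSG00000026628; chromosome 1, 191170296 to 191218039, minus strand) encodes a stress- and cAMP-inducible bZIP protein that often represses. It had 147 and 173 CPM in WT and 480 and 224 CPM in *Pac1-/-* CGRP libraries, the widest spread among the genes that rose. The other 12 libraries lay between 12.6 and 55.2 CPM and did not overlap with them. CGRP gave a log2 fold change of 3.26 ± 0.355 against IL-33 (edgeR adjusted *P* = 0.00027), 2.95 ± 0.350 against IL-7 (adjusted *P* = 0.000619), and 2.74 ± 0.347 against NMU (adjusted *P* = 0.000612).

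*Batf* (ENSMUSG00000034266; chromosome 12, 85686669 to 85709087, plus strand), on the same chromosome as *Fos*, went the other way. It had 29.5 and 66.7 CPM in WT and 62.1 and 45.8 CPM in *Pac1-/-* CGRP libraries. The IL-33 libraries had 188, 205, 264, and 136 CPM in the same order of genotypes, the IL-7 libraries 149, 144, 148, and 113 CPM, and the NMU libraries 181, 273, 227, and 281 CPM. No CGRP library reached the lowest of these. The log2 fold change of CGRP was -1.74 ± 0.294 against IL-33 (edgeR adjusted *P* = 0.00691), -1.40 ± 0.291 against IL-7 (adjusted *P* = 0.0226), and -2.13 ± 0.297 against NMU (adjusted *P* = 0.00111). The call against IL-7 did not hold when any of 5 libraries was left out (WT IL-7 replicates 1 and 2, *Pac1-/-* IL-7 replicate 1, WT CGRP replicate 1, and *Pac1-/-* CGRP replicate 2), with adjusted *P* values of 0.0588 to 0.0799. On the 8 libraries of each comparison alone, the adjusted *P* value was 0.062 against IL-33 and 0.0557 against IL-7.

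**Figure D2:**
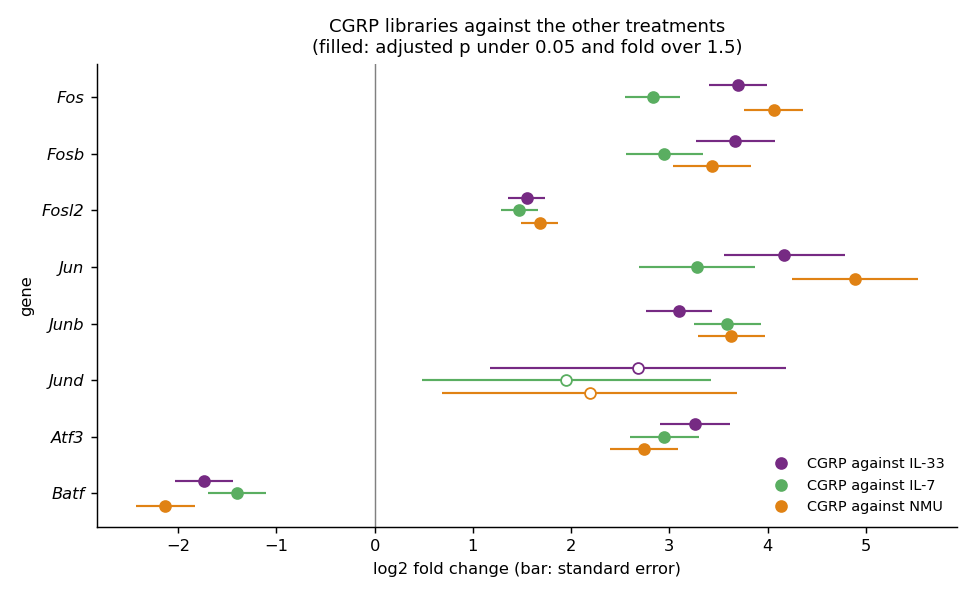
Log2 fold change of the CGRP libraries against the IL-33, IL-7, and NMU libraries for 8 AP-1 genes, with the standard error as a bar and filled points where the adjusted *P* value was under 0.05 and the fold over 1.5. *Fos*, *Fosb*, *Fosl2*, *Jun*, *Junb*, and *Atf3* lie right of 0 in all 3 comparisons, *Batf* lies left of 0, and the bars of *Jund* are the widest.

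The 3 comparisons of CGRP share the CGRP libraries, so their values are set side by side only as a description. Against IL-7, 7 of the 9 genes passed (2.64% of all genes tested), 6 of them higher (1.22%) and 1 lower (1.42%). Against NMU 8 passed (5.47% of all genes tested), 6 of them higher (2.63%) and 2 lower (2.84%), the additional gene being *Fosl1*. The median log2 fold change over the 9 genes was 2.83 against IL-7 and 2.74 against NMU, where all genes tested had medians of 0.011 and 0.016. Heat shock genes, which respond to handling and stress, were counted alongside because they are induced with immediate-early genes. Against IL-33, *Hspa1b* passed of the 8 heat shock genes tested (68.8 ± 12.4 CPM with CGRP and 12.3 ± 3.34 CPM with IL-33, SD, n = 4; edgeR adjusted *P* = 0.00362), and against NMU 5 passed, *Hspa1b*, *Hspa1a*, and *Dnajb1* higher with CGRP and *Hspe1* and *Hspd1* lower. Against IL-7, *Hspa1b* and *Dnajb1* passed, both higher with CGRP. The median log2 fold change of the 8 was 0.51 against IL-33 and 0.88 against IL-7. Summed markers of mast cells and basophils ranged from 76.4 to 177 CPM with CGRP and from 26.0 to 78.1 CPM elsewhere, with *Mcpt8* at 0 in all CGRP libraries, and those of B cells from 32.2 to 261 CPM with CGRP and from 0 to 40.5 CPM elsewhere. Epithelial markers summed to 10.8 to 23.2 CPM with CGRP, 41.3 to 94.6 CPM with IL-33, 31.9 to 296 CPM with NMU, and 13.6 to 40.3 CPM with IL-7, and ILC3 markers to 0 to 1.13 CPM with CGRP and 1.16 to 18.2 CPM elsewhere. In the IL-7 libraries, markers of NK cells and ILC1s summed to 111 to 227 CPM, against at most 5.17 CPM with the other treatments. This sum was led by *Gzma*, which reached 213 CPM. *Tbx21* was at 0 throughout, and *Klrb1c*, *Eomes*, and *Ncr1* reached at most 14.9, 2.6, and 2.59 CPM in any library. T cell markers summed to 230 to 336 CPM with IL-7, against 45.2 to 175 CPM with the other treatments. Both sums bear on every comparison with IL-7. The part of such cells, if present, and of the heat shock genes in the AP-1 values was not tested.

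*Fosl1* (ENSMUSG00000024912; chromosome 19, 5447547 to 5455946, plus strand), which encodes FRA1, had its highest mean with NMU, as *Batf* did. It had 13.6 and 35.0 CPM in the WT and 9.7 and 34.6 CPM in the *Pac1-/-* NMU libraries, and 6.04, 2.94, 9.89, and 2.38 CPM with IL-33. In the IL-7 and CGRP libraries it was at 0 in 5 of 8, and the others had 6 and 20 counts (both *Pac1-/-* IL-7 libraries) and 17 counts (WT CGRP replicate 1). *Fosl1* was thus low or absent with IL-7 and with CGRP, and the lowest IL-33 library was above the highest IL-7 library. Summed over the 4 libraries of a treatment, the NMU libraries held 23.1 CPM and the CGRP libraries 0.418 CPM (17 counts), a ratio of 55.2. Within the *Pac1-/-* libraries, CGRP gave 0 counts, so that NMU was at least 135-fold and IL-33 at least 43.3-fold higher, taking 3 counts over the group as the floor.

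Of the *Fosl1* comparisons, CGRP against NMU passed (edgeR adjusted *P* = 0.015), but not without *Pac1-/-* CGRP replicate 2 (adjusted *P* = 0.0549) or without *Pac1-/-* NMU replicate 2 (adjusted *P* = 0.0528). CGRP against IL-33 (adjusted *P* = 0.0735) did not pass, but did without WT CGRP replicate 1 (adjusted *P* = 0.0323), the CGRP library with counts of the gene, and with DESeq2 (adjusted *P* = 0.00181). NMU against IL-7 missed the threshold narrowly in edgeR (adjusted *P* = 0.0507), passed without any 1 of the CGRP libraries (adjusted *P* = 0.0172 to 0.0441), and passed with DESeq2 (adjusted *P* = 2.02e-06). *Fosl1* overlaps exon bases of *Ccdc85b* on the opposite strand, to which the same limit on strand applies.

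No AP-1 gene passed in the comparisons that left CGRP out. For IL-33 against IL-7, edgeR called 0 of the 9 genes and 0.0334% of all genes, while 2 of the 9 (*Fosl1* and *Fos*) had an unadjusted *P* value under 0.05, against 9.88% of all genes, and DESeq2 called 1 (*Fosl1*). For NMU against IL-33, edgeR and DESeq2 called 0, none of the 9 had an unadjusted *P* value under 0.05, against 6.5% of all genes, and edgeR called 0.187% of all genes. For NMU against IL-7, edgeR called 0 of the 9 and 0.734% of all genes, although 4 (*Fosl1*, *Fos*, *Jun*, and *Batf*) had an unadjusted *P* value under 0.05, against 11.8% of all genes.

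The closest to a call in that comparison, after *Fosl1*, was *Fos*, with a log2 fold change of -1.23 ± 0.270 (edgeR adjusted *P* = 0.0614). The 4 NMU libraries (20.8 to 43.5 CPM) were all below the 4 IL-7 libraries (47.7 to 88.4 CPM). Without *Pac1-/-* IL-7 replicate 2, the lowest of the IL-7 libraries, it passed (adjusted *P* = 0.044), as it did with DESeq2 (adjusted *P* = 0.000805). *Jun* and *Batf* had log2 fold changes of -1.61 ± 0.568 and 0.73 ± 0.286 with NMU against IL-7 (edgeR adjusted *P* = 0.285 and 0.346). By means of TMM-scaled CPM, the treatments had the order CGRP, IL-7, IL-33, NMU for *Fos*, *Fosl2*, and *Jun*, and NMU, IL-33, IL-7, CGRP for *Batf*. In each of these 4 genes the CGRP mean differed from its neighbour beyond the spread, and the other 3 treatments did not differ between neighbours.

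Levels of different genes were compared per kilobase of exon. The length was the union of all exons, 1406 bases for *Batf*, 2352 for *Fos*, and 9680 for *Fosl2*, and the order of the genes depends on it. Summed over the 9 genes, the AP-1 level was 450 to 821 CPM per kilobase in the CGRP libraries and 160 to 296 CPM per kilobase in the 12 others. *Batf* led the family without CGRP, with 50.4% to 55.7% of the summed level with IL-7, 44.2% to 70.1% with IL-33, and 67.4% to 70.0% with NMU. With CGRP it held 4.67% to 9.14%. *Fos* was the leading gene in all 4 CGRP libraries, narrowly over *Atf3* in *Pac1-/-* replicate 1, with shares of 35.2%, 37.3%, 29.6%, and 35.6%, and *Junb* held 19.8% to 25.5%. The share of *Fosl2*, at 6.01% to 16.3% over the 16 libraries, overlapped between CGRP and the other treatments, although its level rose. By CPM, without the length, *Fosl2* was above *Batf* in every IL-7 library (189 to 252 against 113 to 149 CPM). It was also above *Fos* in every CGRP library (525 to 706 against 372 to 571 CPM). With IL-33 and NMU, *Fosl2* or *Batf* was the higher by CPM, depending on the library. In the *Pac1-/-* IL-33 replicate 2 library, *Junb* held 18.5% and *Batf* 44.2%, nearer to the CGRP libraries than the other IL-33 libraries, with 5.2% to 7.13% and 66.2% to 70.1%, were.

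**Figure D3:**
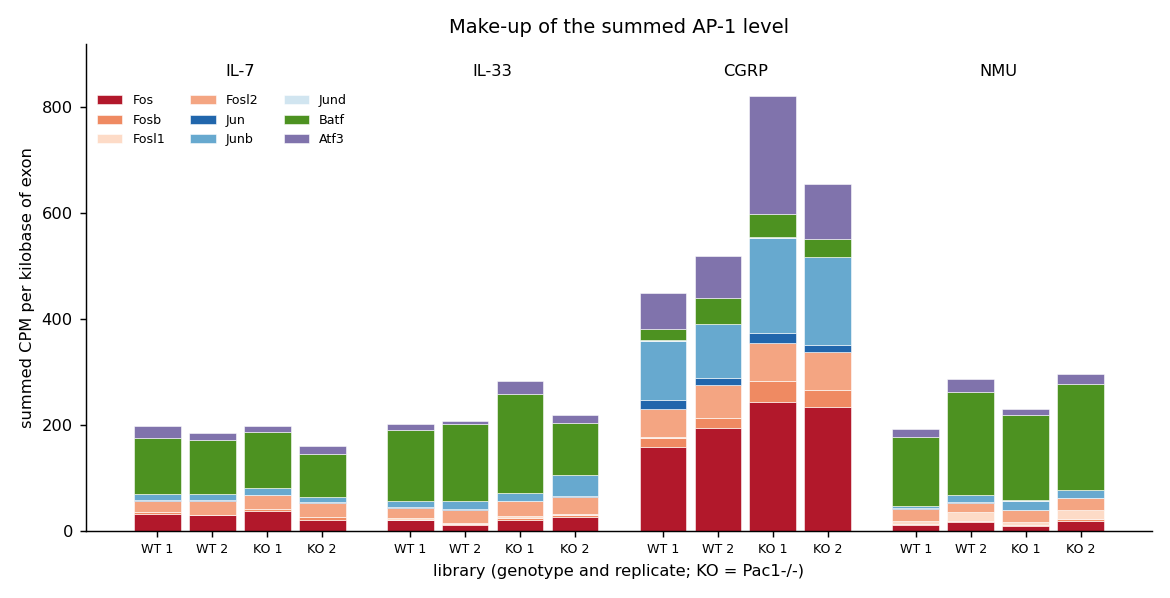
Summed level of the 9 AP-1 genes in each library in CPM per kilobase of exon, stacked by gene, with WT and *Pac1-/-* (KO) replicates grouped by treatment. The CGRP bars reach 450 to 821 and consist mainly of *Fos*, *Junb*, and *Atf3*, while the other bars end at 296 or below and consist mainly of *Batf*.

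The genotypes were compared within each treatment to ask whether loss of PAC1 altered these levels. With CGRP, both *Pac1-/-* libraries were above both WT libraries for 6 of the 9 genes, *Fos*, *Fosb*, *Fosl2*, *Junb*, *Jund*, and *Atf3*, a pattern found in 19.9% of all genes tested, and the reverse held for none of the 9, against 13.1% of all genes. The genes rose together in the same libraries, so they are not independent of each other. None of the differences passed. The study, with DESeq2 and the same cutoffs, names *Atf3* among the genes more highly expressed in *Pac1-/-* ILC2s with IL-33 and CGRP. In the DESeq2 fit made here, on all 16 libraries, the adjusted *P* value of *Atf3* was 0.226. The reason for this difference was not tested. The log2 fold changes of *Pac1-/-* against WT ILC2s were 1.09 ± 0.464 for *Atf3*, 0.92 ± 0.515 for *Fosb*, 0.65 ± 0.437 for *Junb*, 0.40 ± 0.374 for *Fos*, and 0.28 ± 0.261 for *Fosl2*, with edgeR adjusted *P* values of 0.601 to 0.781. For *Jund* the log2 fold change was 0.47 ± 2.01. It rested on 15 and 12 counts in *Pac1-/-* and 15 and 8 counts in WT CGRP libraries, too few to read its order. Of all genes, 0.107% were called, and 2 of the 9 (*Atf3* and *Fosl1*) had an unadjusted *P* value under 0.05, against 7.8% of all genes. *Fosl1* went the other way, lower in *Pac1-/-* ILC2s, and its only counts with CGRP were the 17 of WT CGRP replicate 1.

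*Jun* differed from these genes in its order of genotypes. The WT pair was above the *Pac1-/-* pair with IL-7 (6.14 and 7.07 against 3.26 and 4.45 CPM), with IL-33 (3.92 and 5.98 against 0.646 and 3.41 CPM), and with NMU (2.51 and 1.79 against 1.37 and 1.28 CPM). Of all genes tested, 13.9%, 9.93%, and 18.2% had this order in these treatments, and 1.45% had it in 3 or more. With CGRP the log2 fold change was -0.0026 ± 0.766. Averaged over treatments it was -0.74 ± 0.392 (edgeR adjusted *P* = 0.787). *Fosl2* had both *Pac1-/-* libraries above both WT libraries in every treatment by CPM, as did 0.234% of all genes, though in 2 of them by small margins, and the separation was lost with TMM-scaled CPM.

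Across the other genotype comparisons, edgeR and DESeq2 called 0 of the 9 genes with IL-7, IL-33, or NMU and over the mean of treatments, where edgeR called 0.00668%, 0.00668%, 0.02%, and 0.113% of all genes. In each of these 4 comparisons 1 of the 9 genes had an unadjusted *P* value under 0.05, *Fosl1*, *Atf3*, *Junb*, and *Junb*, respectively, against 4.45%, 3.69%, 3.29%, and 6.77% of all genes. With 2 libraries against 2, an exact permutation test of a single gene cannot go below *P* = 0.333, so the calls rest on the spread shared across genes and groups.

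The response to CGRP itself was then set side by side in the genotypes. *Fos* had log2 fold changes against IL-33 of 3.73 ± 0.417 in WT and 3.68 ± 0.416 in *Pac1-/-* ILC2s, *Atf3* 3.22 ± 0.502 and 3.30 ± 0.502, and *Batf* -1.90 ± 0.417 and -1.58 ± 0.413. The widest difference among the 7 genes called was that of *Jun*, with 3.37 ± 0.843 in WT and 4.96 ± 0.911 in *Pac1-/-* ILC2s. It rested on few counts with IL-33, 10 and 33 in the *Pac1-/-* and 50 and 61 in the WT libraries. With CGRP, *Jun* had a log2 fold change of -0.0026 ± 0.766 between the genotypes. The test of genotype by treatment over 3 differences of response called 0 of the 9 genes and 0.0% of all genes in edgeR and 0 of the 9 in DESeq2. *Fosl1* had an unadjusted *P* value under 0.05, against 4.71% of all genes (edgeR adjusted *P* = 0.878), and the adjusted *P* value was 0.878 for *Atf3* and 0.9 or above for the other 7.

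**Figure D4:**
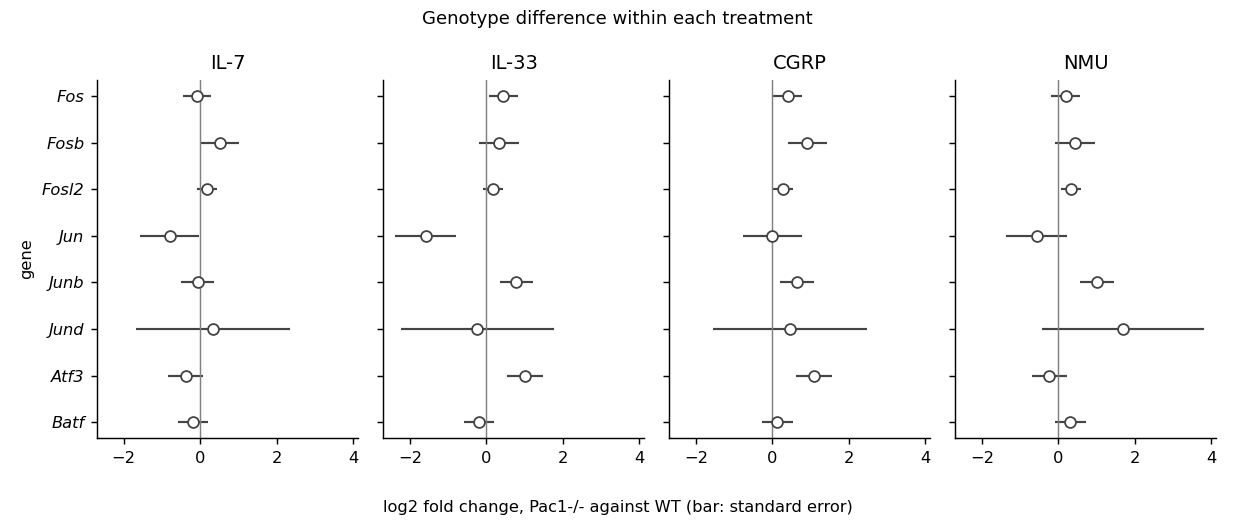
Log2 fold change of *Pac1-/-* against WT ILC2s within each treatment for 8 AP-1 genes, without *Fosl1*. Bars are the standard error, and points are open because none passed the cutoff. With CGRP the points of *Fos*, *Fosb*, *Fosl2*, *Junb*, and *Atf3* lie between 0.28 and 1.09, and *Jun* lies below 0 with IL-7, IL-33, and NMU.

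Other bZIP genes whose products pair or compete with AP-1 proteins were examined as a list. Of 27 listed, 23 were tested, and 2 passed for CGRP against IL-33, as did 2.76% of all genes tested. *Crem*, the cAMP-responsive modulator gene and by far the most abundant of them, rose from 4210 ± 1120 to 6000 ± 705 CPM (SD, n = 4; log2 fold change 0.77, edgeR adjusted *P* = 0.035), and *Creb3* fell from 96.4 ± 30.1 to 32.6 ± 5.34 CPM (log2 fold change -1.34, adjusted *P* = 0.0417). The median log2 fold change of the 23 genes was 0.11. For CGRP against NMU 5 passed (5.47% of all genes tested), *Maf*, *Crem*, and *Nfil3* higher and *Creb3* and *Xbp1* lower. For CGRP against IL-7 2 passed (2.64% of all genes tested), *Nfil3* higher and *Bach2* lower. *Maf* also passed for NMU against IL-7 (0.734% of all genes tested), where it was lower.

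Of the 28 genes of the MAP kinases and of the serum response factor and its partners, which drive *Fos* transcription, 2 passed for CGRP against IL-33. Of all genes tested, 2.76% passed in this comparison. *Map3k8*, encoding the kinase TPL2 upstream of ERK, rose from 94.1 ± 22.5 to 423 ± 65.0 CPM (SD, n = 4; edgeR adjusted *P* = 0.000188), and *Map2k7*, encoding an activator of the JUN kinases, fell from 19.6 ± 17.1 to 6.05 ± 7.06 CPM (adjusted *P* = 0.0405), with wide spread in both groups. The median log2 fold change of the 28 genes was -0.09, near that of all genes. Of 10 genes of phosphatases that act on MAP kinases, 2 passed as higher with CGRP against IL-33, as did 1.65% of all genes tested. The median log2 fold change over the 10 was 1.24, and it was 1.77 for NMU against IL-33, where 0 passed. These medians include genes near the floor, as *Dusp2*, *Dusp4*, and *Dusp8* had means of at most 0.728 CPM with IL-33 and with CGRP. *Dusp1* had 116 ± 23.8 CPM with CGRP and 33.8 ± 8.76 CPM with IL-33 (adjusted *P* = 0.00305), and *Dusp5* had 134 ± 20.5 and 57.2 ± 43.9 CPM (adjusted *P* = 0.0119). *Dusp6* was lower with CGRP than with NMU (34.4 ± 29.8 against 105 ± 13.4 CPM, adjusted *P* = 0.0328).

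Among 12 regulators and partners of AP-1 proteins, 1 passed for CGRP against IL-33, as did 2.76% of all genes tested. This was *Irf4*, whose product binds DNA together with BATF. It fell from 29.5 ± 8.23 CPM with IL-33 to 5.70 ± 2.32 CPM with CGRP (SD, n = 4; log2 fold change -2.12, edgeR adjusted *P* = 0.0265) and was 93.8 ± 34.5 CPM with NMU, higher than with IL-7 (12 ± 2.91 CPM). By their means, *Batf* and *Irf4* were thus both lowest with CGRP and highest with NMU. However, NMU against IL-33 passed for neither gene, and CGRP against IL-7 did not pass for *Irf4*. The other 11 genes did not pass in any treatment comparison, and the median of the 12 for CGRP against IL-33 was -0.27 (log2). None of the genes in these lists or in the heat shock list passed in a genotype comparison by edgeR.

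The promoters of the members were examined for short elements because 6 genes rose in the same libraries. RefSeq promoter sequences (GRCm38.p6, 250 bases before to 50 after the start) were found for 8 members, and *Fosl1* has no entry in the table. The sequences below, written 5′ to 3′ on the gene's strand from 140 bases before the start to base 19 after it, are shown for genes that rose strongly with an element (*Fos*, *Junb*, *Jun*), a gene that rose without one (*Fosl2*), and the gene that fell (*Batf*), with the matched letters in capitals.
*Fos*: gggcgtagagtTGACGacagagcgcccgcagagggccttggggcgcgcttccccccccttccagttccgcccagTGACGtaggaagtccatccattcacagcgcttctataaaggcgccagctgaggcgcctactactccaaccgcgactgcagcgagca
*Junb*: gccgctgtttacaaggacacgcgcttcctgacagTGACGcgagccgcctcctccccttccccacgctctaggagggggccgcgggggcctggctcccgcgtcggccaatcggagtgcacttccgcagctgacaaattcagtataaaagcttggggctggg
*Jun*: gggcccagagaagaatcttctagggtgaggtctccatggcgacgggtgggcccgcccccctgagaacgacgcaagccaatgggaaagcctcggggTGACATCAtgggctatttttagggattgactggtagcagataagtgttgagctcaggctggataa
*Fosl2*: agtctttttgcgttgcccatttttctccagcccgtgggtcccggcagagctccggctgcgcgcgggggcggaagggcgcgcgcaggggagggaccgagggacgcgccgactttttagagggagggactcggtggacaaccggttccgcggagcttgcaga
*Batf*: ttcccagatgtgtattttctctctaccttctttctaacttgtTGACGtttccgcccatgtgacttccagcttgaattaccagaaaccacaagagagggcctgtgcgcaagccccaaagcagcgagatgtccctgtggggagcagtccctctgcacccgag
They lie at chr12:85473750-85473909, plus strand (*Fos*), chr8:84978729-84978888, minus strand (*Junb*), chr4:95052203-95052362, minus strand (*Jun*), chr5:32136332-32136491, plus strand (*Fosl2*), and chr12:85686580-85686739, plus strand (*Batf*).

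The short form of the cAMP response element, TGACG on either strand, was present in the promoter of 5 of the 8 members, where 20.8% of 32851 promoters of the same length hold it. *Fos* had it at -129 and -66 from the start, *Fosb* at -60, *Junb* at -106, *Batf* at -98, and *Atf3* on the opposite strand at -7. It was therefore found in genes that rose and in the gene that fell. *Jun* held TGACNTCA (as TGACATCA, at -45), which 8.83% of promoters hold. The full element TGACGTCA, the AP-1 element TGANTCA, and the CArG box of the serum response factor were in none of the 8, with 1.79%, 7.81%, and 1.63% of all promoters holding them. TGACG is contained in TGACGTCA, and TGACGTCA is one form of TGACNTCA, so these counts overlap. A missing match says only that the letters are not in this window, from 250 bases before the start to 50 after it. This holds for *Fosl2* and *Jund*, and for the CArG box in *Fos* and the other members, where sequence farther from the start was not searched. The RefSeq starts of *Fosl2*, *Jund*, and *Atf3* lie away from the gene starts given above.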

How the data were processed

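Bulk mRNA-Seq of 16 libraries was analysed. Per the study's methods, full-length cDNA was amplified, sequenced with paired ends, and aligned to mm10 with HISAT2. The authors deposited raw read counts per Ensembl gene, without normalization. The counting tool, annotation release, and use of strand are not given in the sources used here, so reads in exons shared by genes on opposite strands are uncertain between them. Symbols, positions, and exon lengths (the union of all exons) came from GENCODE M21, which held 51719 of the 51912 identifiers, and promoters from RefSeq. Groups came from the sample labels.

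Counts were fitted in R 4.3.3 with edgeR 4.0.16 (TMM, filterByExpr by group, quasi-likelihood test), with 8 groups in 1 fit of all 16 libraries, and adjusted by Benjamini-Hochberg over 14979 genes. Treatments were averaged over genotypes with equal weight. Standard errors were derived from the fitted change and its *F* value. The cutoff was an adjusted *P* value under 0.05 and a fold over 1.5, in 12 comparisons. CPM are counts per 1000000 of the library total. The fit was tested on simulated data. Alternatives were DESeq2 1.42.0, the replicate number as a block, RLE size factors, no minimum fold, fits to the libraries of a comparison only, a stricter filter (10 or more counts in each library) or none, and each library left out (a lone library is then assumed to vary like the other groups).

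The genes named are the 9 members, up to 3 genes with the most similar pattern for each member called, up to 4 called genes of each list by *P* value (all 5 where 5 were called, the fifth named after its value was seen), overlapping genes, *Dusp2*, and markers. The members and lists were chosen with earlier results of these data known.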

Additional observations from a re-analysis of the deposited data

Results flagged for a closer look

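By CPM, the IL-33 response of *Atf3* went in opposite directions in the genotypes. In WT ILC2s both IL-33 libraries (25.7 and 12.6 CPM) were below both IL-7 libraries (45.3 and 26.0 CPM), by a small margin for 1 of them, and in *Pac1-/-* ILC2s both IL-33 libraries (53.7 and 35.4 CPM) were above both IL-7 libraries (23.9 and 32.2 CPM). With TMM-scaled CPM the *Pac1-/-* libraries overlapped (47.3 and 27.8 with IL-33, 24.9 and 32.6 with IL-7). The log2 fold changes were -1.01 ± 0.467 and 0.39 ± 0.462, a difference of 1.39. This difference was not tested on its own. The joint test of genotype by treatment for *Atf3* did not pass (edgeR unadjusted *P* = 0.0756, adjusted *P* = 0.878).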

How the results depend on the processing

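The AP-1 genes called for CGRP against IL-33, IL-7, and NMU numbered 7, 7, and 8. They numbered 6 to 8, 6 to 7, and 7 to 8 under the other settings, and 7 to 8, 5 to 7, and 7 to 8 with each library left out. *Fos*, *Fosb*, *Fosl2*, *Junb*, and *Atf3* passed in all of these for all 3 comparisons. For IL-33 against IL-7, 1 AP-1 gene (*Fosl1*) was called without a filter and 1 with DESeq2. For NMU against IL-7, 2 were called without a filter, 1 with at least 10 counts in every library (*Fos*), 1 on the libraries of the comparison only, 2 with DESeq2, and 0 to 1 with each library left out. No genotype comparison called an AP-1 gene under any setting run. With TMM-scaled CPM, an alternative chosen after seeing the data, 0 AP-1 genes were separated by genotype in every treatment.

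Counts over all genes moved more. They are given for IL-33 against IL-7, CGRP against IL-33, NMU against IL-33, CGRP against NMU, CGRP against IL-7, and NMU against IL-7, and then for *Pac1-/-* against WT with IL-7, IL-33, CGRP, and NMU, over the mean of treatments, and for the interaction. The main fit of edgeR called 5, 413, 28, 820, 396, and 110 genes, and then 1, 1, 16, 3, 17, and 0. DESeq2 called 296, 1303, 220, 1886, 1253, and 645, and then 63, 38, 393, 47, 134, and 150. Without a filter the counts were 199, 845, 116, 1318, 862, and 406, and then 21, 26, 183, 39, 117, and 186. With at least 10 counts in every library, NMU against IL-33 gave 53, NMU against IL-7 254, and the genotypes with CGRP 2. On the libraries of the comparison only, IL-33 against IL-7 gave 10, CGRP against IL-33 199, NMU against IL-33 14, CGRP against NMU 525, and the genotypes with CGRP 0. With RLE size factors the genotypes with NMU gave 5. With each library left out, the counts were 2 to 8, 130 to 489, 8 to 28, 426 to 856, 201 to 406, and 43 to 146, and then 1 to 2, 1 to 1, 6 to 85, 0 to 4, 4 to 38, and 0 to 3. The cause of these shifts was not tested.

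Groups share replicate numbers in the labels. The differences between the replicates of a group correlated at -0.273 to 0.248 over 28 pairs of groups, with a median of 0.00651 and 6 over 0.1. Same-numbered libraries thus did not deviate together in general. Whether some of them share mice or a preparation cannot be told from these values. With the replicate number as a replicate block, the AP-1 calls were as in the main fit, while IL-33 against IL-7 gave 2 genes, the genotypes with CGRP 10, and the interaction 1. Low counts limit *Jund* and *Fosl1* most, which were near the floor of 3 counts in many libraries, and 2 libraries a group limit the genotype comparisons.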

Other observations

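The genes whose treatment pattern was most like that of each AP-1 gene were taken from 4895 genes whose mean reached 20 CPM, by Pearson's *r* of log2 CPM over the 8 group means. These are descriptions over 8 points that share libraries and depth, without a test. The nearest to *Fos* were *Tmem64* (*r* = 0.987), the immediate-early gene *Ier2* (0.984), and *Tet2* (0.981). *Ier2* had a mean of 162 CPM with CGRP and 30.4 CPM elsewhere. *Fosl2* was nearest to *Tsc22d2* (0.991), *Ier2* (0.989), and *Fosb* (0.988), and *Junb* to *Tsc22d2* (0.986), *Fosl2* (0.985), and *Nsun6* (0.982). *Fosb* was nearest to *Fosl2*, *2310001H17Rik* (0.983), and *Itpr1*, the gene of an intracellular calcium channel (0.98). *Jun* was nearest to the noncoding transcript gene *1810026B05Rik* (0.982), *Stk17b* (0.979), and *Rab26os* (0.978). *Atf3* was nearest to the pseudogene *Rpsa-ps10* (0.977), which can share reads with near-identical copies, to *Zfp36*, which encodes a protein that destabilizes mRNA (0.971), and to *Rapgef6* (0.965).

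The genes like *Batf* and *Fosl1* were of other kinds. *Batf* was nearest to *Nt5c3b* (0.977), *Set* (0.974), and *Mrps18a* (0.974), the last of which encodes a mitochondrial ribosomal protein, and *Set* had a mean of 202 CPM with CGRP and 472 CPM elsewhere. *Fosl1* was nearest to *Ppa1* (0.985), *Tbp* (0.981), and *Tmed9* (0.981), with 74.9 CPM of *Ppa1* with CGRP and 182 CPM elsewhere. Among the members themselves, *Batf* had negative correlations with *Fos* (-0.975), *Fosb* (-0.926), *Fosl2* (-0.94), *Jun* (-0.929), *Junb* (-0.899), *Jund* (-0.814), and *Atf3* (-0.871), and a positive one with *Fosl1* (0.745).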
